A study of Mus musculus with 8 samples.

Results

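The 97 genes described here had higher values on all 4 arrays of AP20187-treated mouse livers than on any of the 4 arrays of untreated livers, in Atf4-/- and Atf4+/+ animals alike. They were selected on measured values. Among 9425 probe sets that named 1 gene and had a median of at least 0.99 over the arrays, each was scored by the gap between its lowest treated and its highest untreated array, on the scale log2(ratio + 0.1). The 100 highest scores were kept after 11 genes and a gene family had been set aside by name, namely Atf3, Atf5, Ddit3, Ddit4, Trib3, B3galt1, Ifrd1, Cdkn1a, Gadd45a, Myc, Igfbp1 and the aminoacyl-tRNA synthetases with symbols ending in ars. The 100 probe sets belong to 97 of the 7502 genes that could have entered. Treated against untreated is thus how the genes were found, and those differences are given as values with no test.

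The study measured liver RNA on 8 Affymetrix MG-U74Av2 arrays, 2 in each of 4 groups: AP20187-treated Atf4-/-, AP20187-treated Atf4+/+, untreated Atf4-/- and untreated Atf4+/+. All animals carried Ttr::Fv2E-PERK from 1 low-expressing line (#58), on a mixed FvB/n and Swiss Webster background, and were siblings from a backcross to Atf4+/- stock. In this transgene the transthyretin promoter, active in hepatocytes, drives PERK, a kinase, joined to a domain that the drug AP20187 pairs up, so that the kinase is switched on without misfolded protein. The series title sets AP20187 against mock injection where the sample labels say untreated. Age, dose and time after injection are not given in the sources used here, nor is it stated that both arrays of a group are of different mice. If they are not, a p-value covers no more than the spread among these arrays, which may be technical.

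PERK phosphorylates the initiation factor eIF2α, which lowers translation of most messenger RNAs and raises that of a few, among them Atf4. The transcription factor ATF4 then switches on genes of amino acid supply, redox balance and protein folding, a programme called the integrated stress response. Ribosomes, whose proteins and RNA take up much of a cell's synthetic effort, are put together in the nucleolus by assembly factors and by small nucleolar RNAs (snoRNAs), many of which are cut out of the introns of host genes.

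Each deposited value was a linear ratio, mostly to the median of the probe set across all 8 arrays. A value of 1 is therefore the middle of these arrays, and levels of different genes cannot be set against each other. Atf4 itself had ratios of 0.25 and 0.33 in treated Atf4-/- and 4.17 and 5.75 in treated Atf4+/+ livers, against 0.29 and 1.67 in untreated Atf4-/- and 2.36 and 0.30 in untreated Atf4+/+ livers. Both treated pairs matched their labels. In the untreated livers 1 array of each genotype stood against its label, and untreated Atf4-/- array 1 has a description that names the other genotype. The choice of the genes pools both genotypes and does not depend on those labels, but every genotype comparison among untreated arrays does. So does every difference with AP20187 given for 1 genotype, and the comparison of these differences between genotypes. Untreated livers are named here as their labels give them. Eif2ak3, which encodes the cell's own PERK, had ratios of 0.98 and 1.01 in treated Atf4-/- and 0.99 and 1.37 in treated Atf4+/+ livers, against 1.45 and 0.61 in untreated Atf4-/- and 0.85 and 1.09 in untreated Atf4+/+ livers, and its groups overlapped. In liver tissue fewer cells of a type and less RNA per cell cannot be told apart.

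Of the 9425 probe sets, 466 (4.94%) had every treated array above every untreated one, and over all 10833 single-gene probe sets the share was 4.41%. Fewer, 394, had every treated array below every untreated one (4.18%). The score of the chosen 100 lay between 1.32 for Eepd1, a 2.49-fold gap between the nearest treated and untreated arrays, and 0.29, a 1.22-fold gap, with a median of 0.42. Past the same gap of 0.29 in the other direction lay 53 probe sets of 52 genes. The mean difference between treated and untreated arrays had a median of 1.06 (log2), between 0.43 for Smc3, a cohesin subunit, and 2.95 for Snhg5, against a median of -0.04 over all 12422 probe sets. It was at least 1 in 58 of the 100 and at least 2 in 7 genes. Since most ratios are to the median, the lowest treated and the highest untreated ratio added up to 2 or 2.01 for every member, and the lowest treated array alone set the score. No member had a ratio of 2 or more on all 4 treated arrays (0 of 100).

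At the limit of the list 8 probe sets shared the lowest score inside it, and 5 with that same score fell outside, since ties were broken by the larger mean difference. Inside were Osbpl9, Tbpl1, Zscan12, Chka, Sirpa, Hnrnpa1, Abcf2 and Pole4, each with 1.11 on its lowest treated and 0.89 on its highest untreated array. Outside were Brix1, a ribosome assembly factor, Srsf6, a splicing factor, Anapc16, Nek6 and Hax1, and the next score, 0.26, was shared by Tsr1, Cebpg, Srm, Hspb11 and Nfkb2. The names set aside held 15 probe sets of 13 genes with a score inside the limit, the 11 listed genes and the synthetases Sars and Aars. The highest of them was that of Ifrd1 (2.31), followed by Trib3 (2.31) and Atf3 (2.26).

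**Figure D1:**
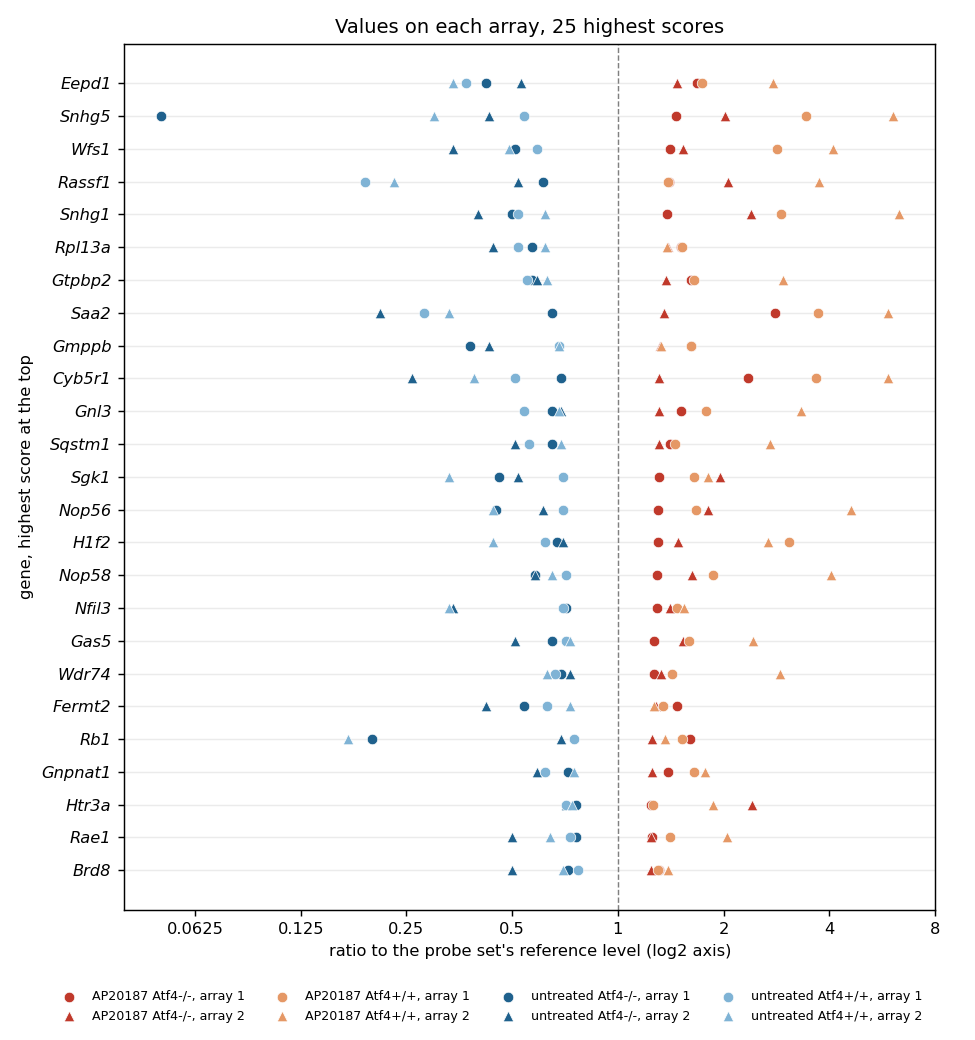
Ratios on each of the 8 arrays for the 25 highest scores, 1 gene a line, on a log2 axis, with circles for array 1 and triangles for array 2 of a group. Every treated point lies right of 1 and every untreated point left of it, and treated Atf4+/+ array 2 is the point farthest right for Snhg5, Snhg1, Saa2 and Cyb5r1.

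The gene with the widest gap was Eepd1, which encodes a nuclease of stalled replication forks. Its ratios were 1.68 and 1.47 in treated Atf4-/- and 1.74 and 2.76 in treated Atf4+/+ livers, against 0.42 and 0.53 in untreated Atf4-/- and 0.37 and 0.34 in untreated Atf4+/+ livers. Its lowest treated value was thus above its highest untreated value by more than for any other member, and the difference was 1.55 in Atf4-/- and 2.33 in Atf4+/+ livers (log2). Fermt2, the integrin activator kindlin-2, had 1.47 and 1.28 in treated Atf4-/- and 1.34 and 1.27 in treated Atf4+/+ livers, against 0.54 and 0.42 in untreated Atf4-/- and 0.63 and 0.73 in untreated Atf4+/+ livers. Htr3a, a subunit of the serotonin-gated channel, had 1.24 and 2.41 in treated Atf4-/- and 1.26 and 1.86 in treated Atf4+/+ livers, against 0.76 and 0.71 in untreated Atf4-/- and 0.71 and 0.74 in untreated Atf4+/+ livers, and a single treated Atf4-/- array was its highest. The other genes among the 25 highest scores are given with the groups below.

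The largest mean difference was that of Snhg5, like Snhg1 and Gas5 a non-coding host transcript whose introns release snoRNAs. Snhg5 had ratios of 1.46 and 2.02 in treated Atf4-/- and 3.44 and 6.07 in treated Atf4+/+ livers, against 0.05 and 0.43 in untreated Atf4-/- and 0.54 and 0.30 in untreated Atf4+/+ livers. Snhg1 had 1.38 and 2.40 in treated Atf4-/- and 2.92 and 6.30 in treated Atf4+/+ livers, against 0.50 and 0.40 in untreated Atf4-/- and 0.52 and 0.62 in untreated Atf4+/+ livers. In both, treated Atf4+/+ array 2 was the highest and the treated Atf4-/- pair lay below the treated Atf4+/+ pair. Gas5 had 1.27 and 1.53 in treated Atf4-/- and 1.59 and 2.43 in treated Atf4+/+ livers, against 0.65 and 0.51 in untreated Atf4-/- and 0.71 and 0.73 in untreated Atf4+/+ livers on its member probe set, and Epb41l4aos 1.14 and 1.44 in treated Atf4-/- and 1.39 and 2.25 in treated Atf4+/+ livers, against 0.81 and 0.75 in untreated Atf4-/- and 0.86 and 0.64 in untreated Atf4+/+ livers. Rpl13a encodes a protein of the large ribosomal subunit, and its introns also hold snoRNAs. It was even across genotypes, at 1.51 and 1.39 in treated Atf4-/- and 1.52 and 1.38 in treated Atf4+/+ livers, against 0.57 and 0.44 in untreated Atf4-/- and 0.52 and 0.62 in untreated Atf4+/+ livers, though near-identical pseudogenes make its signal uncertain. Over these 5 genes the median difference with AP20187 was 1.36 in Atf4-/- and 1.33 in Atf4+/+ livers. 2 further probe sets of Gas5 differed by 0.70 and 0.43, and on neither were all treated arrays above all untreated ones.

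In the RefSeq annotation (GRCm38.p6) 13 of the 97 member genes (13.4%) had a snoRNA gene inside their span, against 161 of 8237 measured genes (1.95%). This property was looked up after the members had been seen, and strand was not considered. Snhg1 (19:8723487-8726326) and Gas5 (1:161034601-161038539) held 8 each, Nop56 (2:130274367-130279313) held 5, and Rpl13a (7:45125563-45128745) and Nop58 (1:59684961-59711510) held 4 each. Gnl3 and Wdr43 held 3 each, Snhg5, Pabpc4 and Ppan 2 each, and Eepd1, Epb41l4aos and Eif3a 1 each. Of all 161 host genes measured, 23 (14.3%) had every treated array above every untreated one, where the share over genes, with 1 probe set a gene, was 4.75%. For Gas5 and Wdr43 that probe set was not the one that placed the gene on the list, and its groups overlapped. The 148 host genes outside the list held 12 of the 23, and their median difference was 0.06. The rest of the 23 were members, which had been chosen by this same order of arrays.

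Ribosome assembly factors were the largest group that could be named by function, 16 genes. Their functions were assigned after the list was known, so that their number carries no test. Nop56 and Nop58, the paired core proteins of box C/D snoRNA particles, which guide RNA methylation, are among them. Nop56 had ratios of 1.30 and 1.80 in treated Atf4-/- and 1.67 and 4.61 in treated Atf4+/+ livers, against 0.45 and 0.61 in untreated Atf4-/- and 0.70 and 0.44 in untreated Atf4+/+ livers. Nop58 had 1.29 and 1.63 in treated Atf4-/- and 1.87 and 4.05 in treated Atf4+/+ livers, against 0.58 and 0.58 in untreated Atf4-/- and 0.71 and 0.65 in untreated Atf4+/+ livers. Gar1 and Nhp2 belong to the H/ACA particles, which guide pseudouridylation. Gar1 had 1.12 and 1.15 in treated Atf4-/- and 1.48 and 3.30 in treated Atf4+/+ livers, against 0.47 and 0.88 in untreated Atf4-/- and 0.57 and 0.65 in untreated Atf4+/+ livers. Nhp2 had 1.12 and 1.13 in treated Atf4-/- and 1.76 and 1.92 in treated Atf4+/+ livers, against 0.88 and 0.68 in untreated Atf4-/- and 0.86 and 0.82 in untreated Atf4+/+ livers. In all 4 genes both treated Atf4-/- values lay below treated Atf4+/+ array 2, and in Nop58, Gar1 and Nhp2 below both treated Atf4+/+ arrays.

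Gnl3 (nucleostemin) and Gnl2 are nucleolar GTPases of large-subunit assembly. Gnl3 had 1.51 and 1.31 in treated Atf4-/- and 1.78 and 3.33 in treated Atf4+/+ livers, against 0.65 and 0.69 in untreated Atf4-/- and 0.54 and 0.68 in untreated Atf4+/+ livers. Gnl2 had 1.15 and 1.21 in treated Atf4-/- and 1.51 and 2.13 in treated Atf4+/+ livers, against 0.80 and 0.85 in untreated Atf4-/- and 0.61 and 0.45 in untreated Atf4+/+ livers. Wdr74, which acts in maturation of the large subunit, had 1.27 and 1.33 in treated Atf4-/- and 1.43 and 2.89 in treated Atf4+/+ livers, against 0.69 and 0.73 in untreated Atf4-/- and 0.66 and 0.63 in untreated Atf4+/+ livers. Wdr43, a part of the complex that starts on the small-subunit precursor, had 1.18 and 1.16 in treated Atf4-/- and 1.21 and 2.43 in treated Atf4+/+ livers, against 0.74 and 0.84 in untreated Atf4-/- and 0.56 and 0.56 in untreated Atf4+/+ livers. The remaining 8 were Utp4, Ngdn, Nifk, Ppan, Grwd1, Mphosph10, Surf6 and Spata5, with treated ratios from 1.12 to 4.62 and untreated ratios from 0.21 to 0.88. For the 16 genes the difference with AP20187 had a median of 0.76 in Atf4-/- and 1.56 in Atf4+/+ livers. The treated Atf4-/- mean was below the treated Atf4+/+ mean in all 16 (45.2% of all probe sets), by a median of 0.66, and in 15 both treated Atf4-/- arrays were below both treated Atf4+/+ arrays (15.3% of all probe sets). In 15 of the 16 treated Atf4+/+ array 2 was the highest of the 8. Set against treated Atf4+/+ array 1 alone, the median genotype difference of the 16 was -0.31, and that array was above both treated Atf4-/- arrays in 15 (31.2% of all probe sets). No member of the group passed the adjusted genotype test, and 2 of 16 were lower in treated Atf4-/- livers at an unadjusted p under 0.05 by limma, as were 2.78% of all probe sets.

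Genes of translation itself numbered 10, and 1 of them (Thumpd3) was lower in treated Atf4-/- livers at an unadjusted p under 0.05 (limma), as were 2.78% of all probe sets. Gtpbp2, a GTPase that helps to free stalled ribosomes, had 1.62 and 1.37 in treated Atf4-/- and 1.65 and 2.95 in treated Atf4+/+ livers, against 0.57 and 0.59 in untreated Atf4-/- and 0.55 and 0.63 in untreated Atf4+/+ livers. The initiation factors Eif1a, Eif3a and Eif3d take part in start codon search and ribosome binding. Eif1a had 1.26 and 1.29 in treated Atf4-/- and 1.18 and 1.90 in treated Atf4+/+ livers, against 0.80 and 0.58 in untreated Atf4-/- and 0.62 and 0.82 in untreated Atf4+/+ livers, Eif3a had 1.12 and 1.27 in treated Atf4-/- and 1.39 and 2.59 in treated Atf4+/+ livers, against 0.83 and 0.82 in untreated Atf4-/- and 0.88 and 0.84 in untreated Atf4+/+ livers, and Eif3d had 1.18 and 1.15 in treated Atf4-/- and 1.15 and 1.52 in treated Atf4+/+ livers, against 0.83 and 0.64 in untreated Atf4-/- and 0.80 and 0.85 in untreated Atf4+/+ livers. Eif3j1, the poly(A)-binding protein Pabpc4, the chaperone of nascent chains Dnajc2, the acetyltransferase subunit Naa15, Thumpd3 and Abcf2 complete it. The median difference was 0.67 in Atf4-/- and 0.92 in Atf4+/+ livers, the smallest of the 9 groups in both genotypes.

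Among RNA-binding and nuclear transport genes, Rae1, a messenger RNA export factor, had 1.25 and 1.24 in treated Atf4-/- and 1.41 and 2.05 in treated Atf4+/+ livers, against 0.76 and 0.50 in untreated Atf4-/- and 0.73 and 0.64 in untreated Atf4+/+ livers. Hnrnpa1, a splicing regulator that also has near-identical pseudogenes, had 1.20 and 1.51 in treated Atf4-/- and 1.11 and 2.03 in treated Atf4+/+ livers, against 0.83 and 0.47 in untreated Atf4-/- and 0.68 and 0.89 in untreated Atf4+/+ livers. The paraspeckle protein Pspc1 had one of the largest differences of the list, 2.28, through untreated values between 0.05 and 0.85, while its treated values lay between 1.15 and 2.20. The median over the 10 genes of this group, with Rbpms, Fubp1, Tcea1, Tbpl1, Ipo4, Rcc2 and Mcrs1, was 0.80 in Atf4-/- and 1.17 in Atf4+/+ livers.

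**Figure D2:**
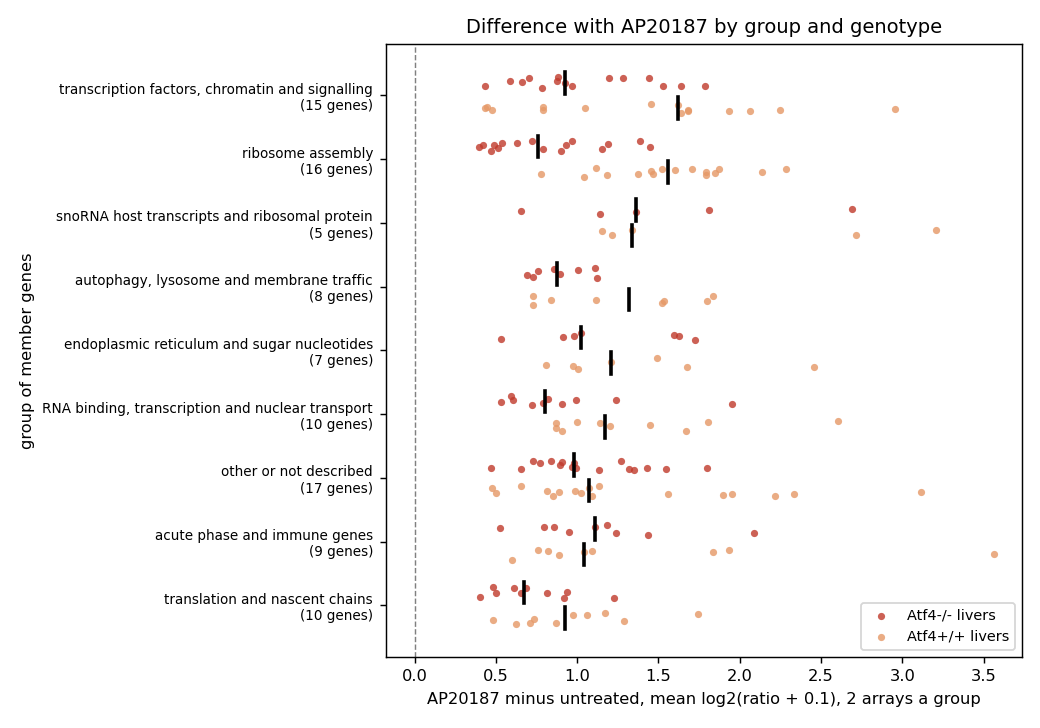
Difference with AP20187 (mean log2 of 2 treated minus mean log2 of 2 untreated arrays) for each member gene by functional group, with Atf4-/- above Atf4+/+ in each group and black bars at the medians. The medians of the ribosome assembly group stand at 0.76 in Atf4-/- and 1.56 in Atf4+/+ livers, while the acute phase group has 1.11 and 1.05.

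The endoplasmic reticulum was represented by 7 genes. Wfs1, the membrane protein wolframin, had ratios of 1.41 and 1.53 in treated Atf4-/- and 2.83 and 4.10 in treated Atf4+/+ livers, against 0.51 and 0.34 in untreated Atf4-/- and 0.59 and 0.49 in untreated Atf4+/+ livers. Xbp1, the transcription factor whose spliced form serves the unfolded protein response, had 1.49 and 1.22 in treated Atf4-/- and 1.42 and 1.66 in treated Atf4+/+ livers, against 0.74 and 0.54 in untreated Atf4-/- and 0.79 and 0.68 in untreated Atf4+/+ livers. Spliced and unspliced Xbp1 were not separated on these arrays. The treated Atf4-/- pair of Wfs1 lay below its treated Atf4+/+ pair, whereas the genotypes of Xbp1 overlapped. Gmppb makes GDP-mannose and Gnpnat1 acts in UDP-N-acetylglucosamine synthesis, both sugar donors of glycoproteins. Gmppb had 1.61 and 1.32 in treated Atf4-/- and 1.62 and 1.33 in treated Atf4+/+ livers, against 0.38 and 0.43 in untreated Atf4-/- and 0.68 and 0.68 in untreated Atf4+/+ livers, and Gnpnat1 had 1.39 and 1.25 in treated Atf4-/- and 1.65 and 1.77 in treated Atf4+/+ livers, against 0.72 and 0.59 in untreated Atf4-/- and 0.62 and 0.75 in untreated Atf4+/+ livers. Cln8, Stbd1 and the nucleotide sugar transporter Slc35d1 were the other 3.

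Acute phase and immune genes numbered 9. Saa2, a serum amyloid that liver secretes in inflammation, had 2.80 and 1.35 in treated Atf4-/- and 3.72 and 5.86 in treated Atf4+/+ livers, against 0.65 and 0.21 in untreated Atf4-/- and 0.28 and 0.33 in untreated Atf4+/+ livers on one probe set and 1.84 and 1.40 in treated Atf4-/- and 1.22 and 6.64 in treated Atf4+/+ livers, against 0.78 and 0.57 in untreated Atf4-/- and 0.48 and 0.75 in untreated Atf4+/+ livers on another. Saa2 is nearly identical to Saa1, so that these signals cannot be assigned to 1 gene with certainty. The member probe set of Cyb5r1, an oxidoreductase gene of another function, had 2.35 and 1.31 in treated Atf4-/- and 3.67 and 5.86 in treated Atf4+/+ livers, against 0.69 and 0.26 in untreated Atf4-/- and 0.51 and 0.39 in untreated Atf4+/+ livers, array by array close to the first Saa2 probe set. Both of these probe sets carry the suffix by which the manufacturer marks probes shared among similar sequences, which 7 of the 100 carry, and 2 other probe sets of Cyb5r1 differed by 0.53 and -0.74. The rest of the 7 are the member probe sets of Nop58, Rb1, Mcrs1 and Dnajc2 and the second of Nfil3. Apcs, serum amyloid P, had 1.41 and 1.22 in treated Atf4-/- and 1.46 and 1.71 in treated Atf4+/+ livers, against 0.78 and 0.34 in untreated Atf4-/- and 0.29 and 0.47 in untreated Atf4+/+ livers. Icam1, a leukocyte adhesion molecule, had 1.14 and 1.37 in treated Atf4-/- and 1.53 and 3.38 in treated Atf4+/+ livers, against 0.86 and 0.48 in untreated Atf4-/- and 0.48 and 0.57 in untreated Atf4+/+ livers. The 4 untreated values of Apcs ran from 0.29 to 0.78 and those of Icam1 from 0.48 to 0.86. Lrg1, Myd88, Il12rb1, Litaf, Sirpa and Pvr were the others, and the group's median difference was 1.11 in Atf4-/- and 1.05 in Atf4+/+ livers. Markers of other cells were read beside this group. Of 10 marker lists none held a member, and the mean log2 level of each overlapped between treated and untreated arrays, for 11 Kupffer cell and macrophage markers 0.08 to 0.28 in treated and -0.28 to 0.51 in untreated livers, and for 10 neutrophil markers -0.11 to 0.39 in treated and 0.002 to 0.41 in untreated livers. Of the macrophage markers 1 of 11 (Mpeg1) was higher on all treated arrays, and the part of such cells in these values was not tested. For 8 hepatocyte markers the means were -0.18 to 0.26 in treated and 0.001 to 0.30 in untreated livers. Single markers differed, 2 of the 8 being higher and 1 lower on all treated arrays. Over all genes 4.75% were higher, and 4.18% of the qualifying probe sets were lower. The means are a check on sameness of the average only, since ratios carry no level by which the tissue could be recognised.

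Autophagy and membrane traffic genes numbered 8. Sqstm1, the p62 receptor that carries ubiquitin-tagged cargo to autophagosomes, had 1.41 and 1.31 in treated Atf4-/- and 1.45 and 2.71 in treated Atf4+/+ livers, against 0.65 and 0.51 in untreated Atf4-/- and 0.56 and 0.69 in untreated Atf4+/+ livers. Ctsl, a lysosomal protease, had 1.23 and 1.23 in treated Atf4-/- and 1.32 and 1.92 in treated Atf4+/+ livers, against 0.74 and 0.51 in untreated Atf4-/- and 0.77 and 0.60 in untreated Atf4+/+ livers. Npc1, which exports cholesterol from lysosomes, had 1.15 and 1.23 in treated Atf4-/- and 1.97 and 4.06 in treated Atf4+/+ livers, against 0.55 and 0.79 in untreated Atf4-/- and 0.65 and 0.85 in untreated Atf4+/+ livers. For all 3 the highest value was that of treated Atf4+/+ array 2. Eps15, a clathrin adaptor, had 1.12 and 1.14 in treated Atf4-/- and 1.32 and 1.46 in treated Atf4+/+ livers, against 0.70 and 0.59 in untreated Atf4-/- and 0.88 and 0.72 in untreated Atf4+/+ livers. Tbc1d15, which switches off the GTPase Rab7, had 1.31 and 1.15 in treated Atf4-/- and 1.25 and 1.62 in treated Atf4+/+ livers, against 0.53 and 0.49 in untreated Atf4-/- and 0.79 and 0.85 in untreated Atf4+/+ livers on one probe set and 1.38 and 1.33 in treated Atf4-/- and 1.15 and 1.39 in treated Atf4+/+ livers, against 0.81 and 0.68 in untreated Atf4-/- and 0.80 and 0.85 in untreated Atf4+/+ livers on another. Osbpl9, a lipid transfer protein, had 1.77 and 1.37 in treated Atf4-/- and 1.11 and 1.91 in treated Atf4+/+ livers, against 0.59 and 0.89 in untreated Atf4-/- and 0.26 and 0.43 in untreated Atf4+/+ livers, though its 2 other probe sets were lower on average in treated livers (-0.36 and -0.48). C9orf72 and Reps1 complete the group.

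The group of transcription factors, chromatin proteins and signalling genes held 15. Rassf1, a Ras association domain tumour suppressor, had 1.40 and 2.06 in treated Atf4-/- and 1.39 and 3.75 in treated Atf4+/+ livers, against 0.61 and 0.52 in untreated Atf4-/- and 0.19 and 0.23 in untreated Atf4+/+ livers. Sgk1, a kinase induced by glucocorticoids and by cell stress, had 1.31 and 1.95 in treated Atf4-/- and 1.65 and 1.81 in treated Atf4+/+ livers, against 0.46 and 0.52 in untreated Atf4-/- and 0.70 and 0.33 in untreated Atf4+/+ livers. Nfil3, a basic leucine zipper repressor linked to the circadian clock, had 1.29 and 1.41 in treated Atf4-/- and 1.47 and 1.54 in treated Atf4+/+ livers, against 0.71 and 0.34 in untreated Atf4-/- and 0.70 and 0.33 in untreated Atf4+/+ livers on one probe set and 1.31 and 1.26 in treated Atf4-/- and 1.18 and 1.47 in treated Atf4+/+ livers, against 0.82 and 0.71 in untreated Atf4-/- and 0.67 and 0.76 in untreated Atf4+/+ livers on a second. Its genotype difference in treated livers was -0.15 on the first and -0.03 on the second. H1f2, a linker histone, had 1.30 and 1.48 in treated Atf4-/- and 3.07 and 2.67 in treated Atf4+/+ livers, against 0.67 and 0.70 in untreated Atf4-/- and 0.62 and 0.44 in untreated Atf4+/+ livers. Gadd45g, a growth arrest gene, had 1.40 and 1.21 in treated Atf4-/- and 1.39 and 2.59 in treated Atf4+/+ livers, against 0.32 and 0.79 in untreated Atf4-/- and 0.42 and 0.34 in untreated Atf4+/+ livers. Crem, a cAMP-responsive regulator, had 1.49 and 1.21 in treated Atf4-/- and 1.12 and 1.17 in treated Atf4+/+ livers, against 0.80 and 0.77 in untreated Atf4-/- and 0.89 and 0.71 in untreated Atf4+/+ livers. H1f2 belongs to a family of closely similar histone genes, so that its signal is uncertain. Rb1 had 1.60 and 1.25 in treated Atf4-/- and 1.52 and 1.36 in treated Atf4+/+ livers, against 0.20 and 0.69 in untreated Atf4-/- and 0.75 and 0.17 in untreated Atf4+/+ livers on a member probe set, but a second Rb1 probe set differed by 0.16. Brd8, a bromodomain protein of a histone acetyltransferase complex, had 1.31 and 1.24 in treated Atf4-/- and 1.30 and 1.39 in treated Atf4+/+ livers, against 0.72 and 0.50 in untreated Atf4-/- and 0.77 and 0.70 in untreated Atf4+/+ livers. Srxn1, which repairs oxidised peroxiredoxins and stands outside this group, had 1.35 and 1.18 in treated Atf4-/- and 1.93 and 3.52 in treated Atf4+/+ livers, against 0.34 and 0.48 in untreated Atf4-/- and 0.83 and 0.81 in untreated Atf4+/+ livers. Another probe set of Srxn1 differed by -0.02 between treated and untreated livers.

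**Figure D3:**
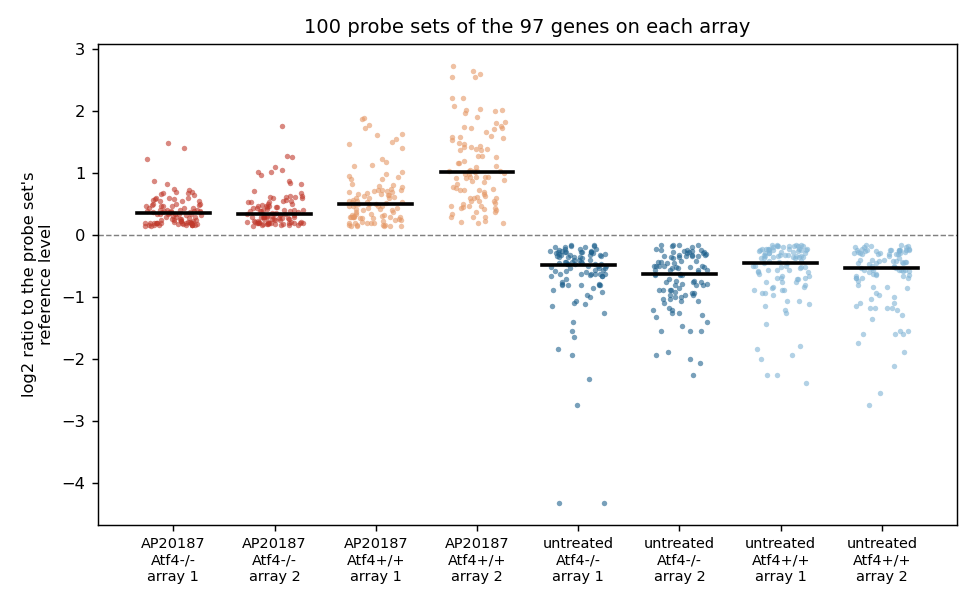
Log2 ratios of all 100 probe sets on each array, with black bars at the medians. Medians are 1.28 and 1.27 (as ratios) on the treated Atf4-/- arrays, 1.42 and 2.04 on the treated Atf4+/+ arrays and 0.65 to 0.74 on the 4 untreated arrays.

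The size of the difference was not the same on every treated array. The median ratio of the 100 probe sets was 1.28 and 1.27 on the treated Atf4-/- arrays and 1.42 and 2.04 on the treated Atf4+/+ arrays, against 0.72 and 0.65 on the untreated Atf4-/- arrays and 0.74 and 0.70 on the untreated Atf4+/+ arrays. Treated Atf4+/+ array 2 was the highest of the 8 for 79 of the 100, treated Atf4+/+ array 1 for 9 and the treated Atf4-/- arrays for 4 and 8. This array also had the widest spread of log2 values over all probe sets, an SD of 0.68 against 0.59 to 0.65 on the other 7. Its 5' over 3' log2 ratio for Actb, a sign of RNA quality, was -0.64, against -0.19 to 0.14 on the other 7. For Gapdh the same ratio was -0.06, against -0.05 to 0.13 on the other 7. The 5' and 3' values had already been divided, mostly by the median of their own probe set. A 5' over 3' figure thus places an array relative to the typical array of this series. How intact the RNA was on any array cannot be read from it. The part of spread and RNA quality in the members' values was not tested. The gap between replicates had a median over the members of 0.17 in treated Atf4-/- and 0.51 in treated Atf4+/+ livers, with 0.27 and 0.39 over all probe sets. Taken within a genotype, the difference with AP20187 was larger in Atf4+/+ livers for 74 of the 100 and in Atf4-/- livers for 26, with a median of 0.91 in Atf4-/- and 1.19 in Atf4+/+ livers, against -0.02 and -0.06 over all probe sets.

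The choice of the members did not use Atf4 genotype, which was tested in all 12422 probe sets by limma, with Benjamini-Hochberg adjustment. It did use the same treated values, asking that all 4 be high, which favours a small spread among treated arrays. The counts of members below are thus not independent of the choice, while the shares over all probe sets come from an unselected set. Among treated livers 88 of the 100 had a lower mean in Atf4-/- than in Atf4+/+, where 45.2% of all probe sets did, and the median difference was -0.42 against 0.04 over all. Both treated Atf4-/- arrays lay below both treated Atf4+/+ arrays for 51 of the 100 (15.3% of all probe sets), and above both for 4 (19.2% of all). Treated Atf4+/+ array 1 alone was above both treated Atf4-/- arrays for 57 members (31.2% of all), and array 2 for 82 (34.3% of all). No member passed an adjusted p of 0.05 lower or higher in Atf4-/- livers, and 0% of all probe sets did in either direction. With no adjustment 15 members were lower at a p under 0.05, against 2.78% of all probe sets, and 0 were higher, against 2.53%. Limma with trend and robust moderation gave 13 lower (2.53% of all) and with array weights 19 (2.85% of all). Without treated Atf4+/+ array 2 the count was 6 (1.92% of all), 76 members had a lower mean (47.4% of all) and the median difference was -0.13, where it was 0.03 over all probe sets. Without treated Atf4+/+ array 1 the count was 40 (4.48% of all) and the median difference -0.64.

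**Figure D4:**
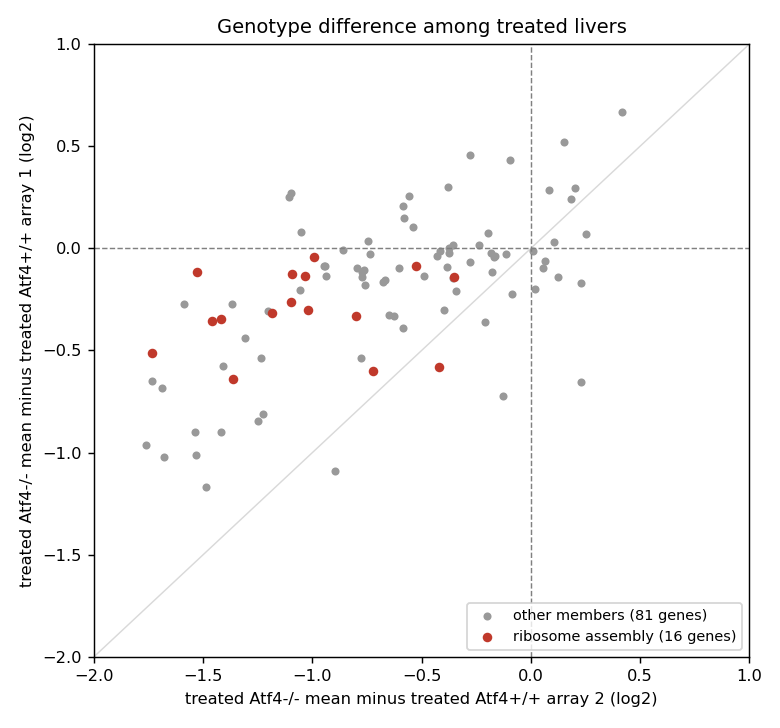
Genotype difference in treated livers for the 97 genes, as the mean of the treated Atf4-/- arrays minus treated Atf4+/+ array 2 (horizontal) and minus treated Atf4+/+ array 1 (vertical), with the ribosome assembly group in red. Of the 97, 68 lie below 0 on both axes, among them all 16 of ribosome assembly, and 83 lie above the diagonal, where treated Atf4+/+ array 2 exceeds array 1.

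The smallest genotype p-values belonged to 5 genes with lower values in treated Atf4-/- livers. Arl14ep, which encodes an effector of the small GTPase ARL14, had ratios of 1.20 and 1.47 in treated Atf4-/- and 3.11 and 3.91 in treated Atf4+/+ livers, against 0.66 and 0.68 in untreated Atf4-/- and 0.80 and 0.56 in untreated Atf4+/+ livers. Its genotype difference was -1.33 ± 0.25 (SE), with an adjusted p of 0.481 (limma). Rora, a nuclear receptor of the clock and of lipid genes, had 1.14 and 1.53 in treated Atf4-/- and 2.77 and 4.01 in treated Atf4+/+ livers, against 0.69 and 0.66 in untreated Atf4-/- and 0.86 and 0.74 in untreated Atf4+/+ livers, a genotype difference of -1.27. Mdfic, a transcriptional regulator, had 1.31 and 1.18 in treated Atf4-/- and 2.26 and 3.04 in treated Atf4+/+ livers, against 0.57 and 0.81 in untreated Atf4-/- and 0.82 and 0.75 in untreated Atf4+/+ livers, a difference of -1.02. H1f2 (-0.99) and Wfs1 (-1.16) were the other 2, and their values stand above. In all 5 the treated Atf4-/- pair lay below the treated Atf4+/+ pair without overlap. Both pairs lay above every untreated array, as they do for every member by the way the list was made. On a second probe set Arl14ep overlapped between treated and untreated livers, with a treated minus untreated difference of 0.82 and a treated genotype difference of -1.17. A second Rora probe set had a treated minus untreated difference of 0.27, and its treated genotype difference of 0.21 ran the other way (unadjusted limma p 0.675).

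The 5 smallest p-values in the opposite direction were those of Frat2, which binds glycogen synthase kinase 3, Crem, Il12rb1, Wac and 1 gene known by a clone name. Frat2 had 1.66 and 2.03 in treated Atf4-/- and 1.12 and 1.35 in treated Atf4+/+ livers, against 0.83 and 0.24 in untreated Atf4-/- and 0.88 and 0.87 in untreated Atf4+/+ livers, a genotype difference among treated livers of 0.54 ± 0.46 (SE). Il12rb1, a chain of the interleukin-12 receptor, had 1.36 and 2.14 in treated Atf4-/- and 1.16 and 1.53 in treated Atf4+/+ livers, against 0.83 and 0.84 in untreated Atf4-/- and 0.43 and 0.81 in untreated Atf4+/+ livers, and Wac, an adaptor of histone H2B ubiquitination, had 1.58 and 1.39 in treated Atf4-/- and 1.41 and 1.23 in treated Atf4+/+ livers, against 0.74 and 0.78 in untreated Atf4-/- and 0.75 and 0.69 in untreated Atf4+/+ livers. Their genotype differences were 0.34 and 0.16, and that of Crem 0.21. None of these 4 had an unadjusted p under 0.05, and the 4 members with both treated Atf4-/- arrays above both treated Atf4+/+ arrays were Frat2, Crem, Lrg1 and the clone-named gene.

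Whether the AP20187 difference itself was unequal between genotypes was tested as an interaction. The difference was smaller in Atf4-/- for 74 of the 100 (46.6% of all probe sets), with a median of -0.31 against 0.04 over all probe sets. No member passed the adjusted test in either direction, the smallest adjusted p being 0.772, and 0% of all probe sets passed lower or higher. With no adjustment 5 members were smaller in Atf4-/- at a p under 0.05, against 2.73% of all, and 0 were larger, against 2.73%. The 5 were H1f2 (-1.33), Arl14ep (-1.33), Gnl2 (-1.13), Rora (-1.06) and Tbpl1 (-1.09), a relative of the TATA-binding protein, which had 1.11 and 1.83 in treated Atf4-/- and 2.65 and 3.53 in treated Atf4+/+ livers, against 0.77 and 0.89 in untreated Atf4-/- and 0.85 and 0.76 in untreated Atf4+/+ livers. The smallest p-values the other way were those of Frat2 (1.34), Gmppb (0.62), Sirpa (0.84), Fermt2 (0.50) and the clone-named gene, none under 0.05. Sirpa, an inhibitory receptor of myeloid cells, had 1.11 and 1.34 in treated Atf4-/- and 1.44 and 1.30 in treated Atf4+/+ livers, against 0.58 and 0.25 in untreated Atf4-/- and 0.89 and 0.85 in untreated Atf4+/+ livers. Without treated Atf4+/+ array 2, 59 were smaller in Atf4-/- (47.5% of all), with a median of -0.08, and 3 of these had an unadjusted p under 0.05 (2.08% of all).

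Without AP20187 64 of the 100 were lower in livers labelled Atf4-/- (50.6% of all probe sets), with a median of -0.07 against -0.01 over all probe sets. No member passed the adjusted test in either direction (smallest adjusted p 0.821), and 0% of all probe sets passed lower or higher. At an unadjusted p under 0.05, 4 members were lower, against 2.56% of all, and 2 were higher, against 2.76%. Without the 2 untreated arrays whose Atf4 ratio stood against the label, 54 were lower (49.8% of all) and the counts were 2 and 3. Without untreated Atf4-/- array 2 alone, 49 were lower (48.5% of all), and the median was above 0, at 0.0056.

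Promoters were read from RefSeq (GRCm38.p6) as 250 bases before to 50 after a start site, with 89 windows for 77 of the 97 genes. The letters TGATGNAA, the composite site that ATF4 binds with C/EBP partners, stood on either strand in 6 of the 89 windows (6.74%), against 2.44% of the windows of measured genes and 3.97% of all windows. The full cAMP response element TGACGTCA stood in 3 windows (3.37%), against 2.60% and 1.79%. Such a match is a description of letters, and the share rests on 6 and 3 windows. The 5 TGATGNAA windows whose match lies before the start site of the window are shown because ATF4 is the factor deleted in the Atf4-/- animals, with the match in capitals, each 5′ to 3′ on the gene's strand.

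Arl14ep: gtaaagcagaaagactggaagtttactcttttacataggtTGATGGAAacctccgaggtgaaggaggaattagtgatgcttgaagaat
Eps15: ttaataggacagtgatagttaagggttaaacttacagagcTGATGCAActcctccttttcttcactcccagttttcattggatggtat
Tbc1d15: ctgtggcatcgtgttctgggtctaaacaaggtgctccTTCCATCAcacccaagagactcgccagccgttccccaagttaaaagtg
Gadd45g: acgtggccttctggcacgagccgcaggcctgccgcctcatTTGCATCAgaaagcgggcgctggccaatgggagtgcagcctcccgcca
Ctsl: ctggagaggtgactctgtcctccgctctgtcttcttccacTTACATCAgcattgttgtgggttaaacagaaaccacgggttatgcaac

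The Arl14ep stretch is chr2:106973113-106973200 (minus strand), and its match begins 116 bases before a second annotated start inside the gene. The Eps15 stretch is chr4:109342889-109342976 (plus strand), with the match 127 bases before an annotated start inside the gene. The Tbc1d15 stretch is chr10:115251659-115251743 (minus strand), with the match 213 bases before the start. The Gadd45g stretch is chr13:51846534-51846621 (plus strand), with the match 101 bases before the start. The Ctsl stretch is chr13:64370626-64370713 (minus strand), with the match 153 bases before an annotated start that lies 252 bases inside the gene, so that the stretch is within the gene. The last 3 are reverse complements, so that the motif runs against the gene. Mdfic had a match 9 bases after an annotated start that lies 95 bases inside the gene. Of these 6 genes, Arl14ep (-1.33) and Mdfic (-1.02) were among the 5 with the smallest treated genotype p-values (limma), none past adjustment. The treated genotype difference was -0.28 for Eps15, -0.35 for Ctsl, -0.51 for Gadd45g and -0.20 and 0.09 on the Tbc1d15 probe sets.

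The TGACGTCA windows of Gas5 and Ppan, a ribosome assembly factor, are shown because both genes also hold snoRNAs, with the element in capitals.

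Gas5: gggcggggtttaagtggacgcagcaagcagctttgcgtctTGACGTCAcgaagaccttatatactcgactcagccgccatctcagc
Ppan: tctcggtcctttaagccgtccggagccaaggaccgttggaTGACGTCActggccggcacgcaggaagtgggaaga

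The Gas5 stretch is chr1:161035080-161035165 (plus strand), with the element 46 bases before the second annotated start, which lies inside the gene. The Ppan stretch is chr9:20888100-20888174 (plus strand), with the element 35 bases before the start. Ppan had 1.20 and 1.13 in treated Atf4-/- and 1.42 and 2.61 in treated Atf4+/+ livers, against 0.87 and 0.85 in untreated Atf4-/- and 0.83 and 0.27 in untreated Atf4+/+ livers. Osbpl9 had one 19 bases after its start. The short element TGACG, which is part of TGACGTCA, stood in 34.8% of the member windows, against 28.5% of measured and 20.8% of all windows, and the E-box CACGTG, which MYC and related factors bind, in 12.4%, against 9.55% and 7.15%. The AP-1 letters TGANTCA stood in 5.62%, against 6.24% and 7.81%, and the C/EBP-like letters TTGCGCAA in none (0 of 89), against 0.33% and 0.18%.

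Genes of the same pathways outside the list were read from 16 gene lists, with 1 probe set a gene chosen without regard to treatment. Of all 8251 genes 4.75% had every treated array above every untreated one. Of 29 translation factors, 13 did (44.8%), 3 of them members, and 26 had a difference above 0, with a median of 0.28 against -0.04 over all genes. The other 10 included Eif2b4 (0.68), Eif2s2 (0.63) and Eif6 (0.55), subunits of the exchange factor for eIF2, of eIF2 itself and an anti-association factor, named after their values were seen. Of 57 genes of RNA processing and ribosome assembly, 17 did (29.8%), and 51 were above 0, with a median of 0.35. Of its 49 genes outside the list, 44 were above 0 with a median of 0.30. Nop2 (0.82), an RNA methyltransferase, and Npm1 (0.76), a nucleolar chaperone, were among them and were also named after their values were seen.

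Of 16 genes of transfer RNA and nuclear export all 16 were above 0, with a median of 0.48, and 6 (37.5%) had every treated array above every untreated one, none of them a member. Among 38 ATF4 and CHOP targets, a list without the 11 genes set aside by name, 8 did (21.1%), 2 of them members (Gtpbp2 and Sqstm1), and the median was 0.13 in Atf4-/- and 0.50 in Atf4+/+ livers. ER chaperone genes counted 5 of 21, with 1 member (Xbp1), immediate early genes 8 of 39, with 1 member (Sgk1), and acute phase genes 6 of 41, with 3 members (Apcs, Icam1 and Saa2). Of 38 cytoskeleton genes and 31 of cell division none did (0 of each), and none of 23 genes of sterol and fatty acid synthesis, whose median was -0.70. In the remaining lists the counts were 2 of 18 growth arrest genes, 1 of 22 heat shock proteins, 1 of 26 oxidant defence genes, 2 of 29 ubiquitin and autophagy genes, 2 of 33 glucose and fasting genes and 1 of 17 amino acid transporters.

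**Figure D5:**
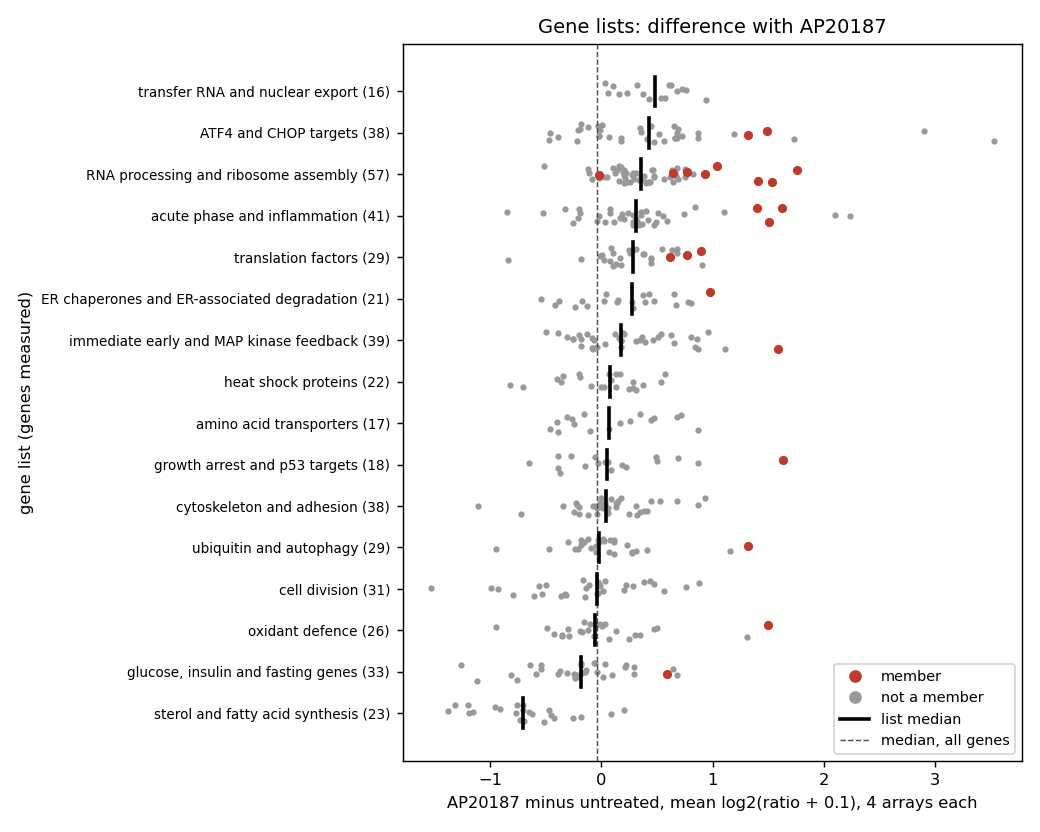
Difference with AP20187 (mean log2 of 4 treated minus 4 untreated arrays) for each gene of 16 lists, members in red, list medians as black bars and the median of all genes as a dashed line. Lists are ordered by their median, from 0.48 for transfer RNA and nuclear export to -0.70 for sterol and fatty acid synthesis, and a member can show another probe set here (Gar1, -0.02).

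A member gene can have more than 1 probe set. The 29 member genes with others had 37 of them, of which 7 had every treated array above every untreated one, those of Dnajc2, Eif1a, Eps15, Ipo4, Pole4 and Tcea1 (on 2). Over all single-gene probe sets the share was 4.41%. A treated minus untreated difference above 0 was found for 25 of the 37, with a median of 0.37, between -0.74 for Cyb5r1 and 1.08 for Rcc2. Over all genes, with 1 probe set a gene, 3735 of 8251 were above 0. Gar1 (-0.02), Grwd1 (-0.36) and Nop56 (-0.20, on a probe set with low values throughout) had another probe set without the difference, and Sirpa had 2 (-0.38 and 0.01). The same held for a probe set of Srxn1 (-0.02), Frat2 (-0.15), Fubp1 (-0.18), Il12rb1 (-0.41), Abcf2 (0.01) and the clone-named gene (-0.16). Those of Cyb5r1 and Osbpl9 are given above.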

How the data were processed

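Total RNA of mouse liver was extracted with STAT60 and RNeasy and hybridised as biotinylated cRNA to 8 MG-U74Av2 arrays, per the labels' protocols. The authors deposited 1 table of linear ratios in steps of 0.01, in which 10714 of 12488 probe sets (85.8%) had a row median of at least 0.99. The steps from signal to ratio are not given in the sources used here, signal over background is unknown, and precision is limited by the number of arrays.

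Groups came from source names and descriptions. After 66 controls were left out, 12422 probe sets were tested, 10833 of them with 1 gene, and 10817 of those were matched to RefSeq (GRCm38.p6). The fit took log2(ratio + 0.1) as the response. It used limma 3.58.1 under R 4.3.3, with statmod 1.5.0, a mean for each of the 4 groups over all 8 arrays and eBayes moderation (4 residual and 2.37 prior degrees of freedom), and 3 genotype contrasts were adjusted by Benjamini-Hochberg over all 12422, with a threshold of 0.05. The median SE was 0.32. Gene lists use 1 probe set a gene, chosen by row median, plain name and smallest SD within groups.

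The members, gene lists, markers and tests were chosen with earlier results of these data known, and functional groups and the snoRNA count after the members had been seen. Genes were named by a rule: the 25 highest scores and members of the gene lists with all values, those at the limit, the 5 smallest p-values in each direction of both genotype comparisons, members with a TGATGNAA or TGACGTCA match, Atf4 and Eif2ak3. Other genes were picked with their values known, as stated beside them, or are only listed in their group. Pseudocount, scaling, filter, moderation and score were varied, and each array was left out in turn. The doubted untreated arrays, whose Atf4 ratio stood against the label, were also left out together, but were not regrouped. Only the untreated array whose description names the other genotype was regrouped, by that description. Its Atf4 ratio of 0.29 went with its Atf4-/- label and not with that description. Python 3.11.15 with pandas 2.3.3 and matplotlib 3.10.9 drew the figures.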

Additional observations from a re-analysis of the deposited data

How the results depend on the processing

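No member passed the adjusted test in any of the 3 genotype comparisons under any alternative run (limma). When the 100 highest scores were chosen anew, a change of pseudocount did not alter the list by construction, since the lowest treated array alone sets the order. With quantile normalization 96 of the 100 were kept, with each array centred on its median 97, and with no minimum row median 97. With the difference of means as the score 41 were kept, and the list so chosen had median differences of 1.25 in Atf4-/-, 1.70 in Atf4+/+ and 1.42 in both genotypes. Without the 2 doubted untreated arrays 46 were kept, and leaving out each array in turn kept 55 to 83, fewest without untreated Atf4+/+ array 1. A pseudocount of 0.5 brought the median difference in Atf4+/+ livers to 0.89.

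The count of members lower in treated Atf4-/- livers at an unadjusted p under 0.05 was 15, became 23 with a pseudocount of 0.5 (2.94% of all probe sets), and lay between 6 (without treated Atf4+/+ array 2) and 40 (without treated Atf4+/+ array 1) when an array was left out. For the difference of AP20187 effects the count of 5 became 10 with a pseudocount of 0.5 (2.75% of all) and 9 with untreated Atf4-/- array 1 placed by its description (2.55% of all), and lay between 3 (2.08% of all) and 29 (3.95% of all) without the same 2 arrays in that order. Where a group is left with 1 array, that array is assumed to vary like the other groups. Quantile normalization brought the number of members lower in treated Atf4-/- to 80 (48.6% of all probe sets) and their median to -0.25. The other 174 values of these summaries and 360 values of named members kept their direction and stayed within the limits used. The cause of these changes was not tested. The number of arrays, 2 a group, limits what the adjusted test can show. No paired analysis was possible because the labels carry no replicate numbers.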

Other observations

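The 97 member genes lay on 18 chromosomes. The median span of a member gene in RefSeq (GRCm38.p6) was 15183 bases, against 19157 bases over all measured genes, and that of the 13 members holding a snoRNA gene was 4947 bases, against 31253 bases over all 161 such genes measured.

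The median SD within groups was 0.30 (log2) for the 100 probe sets, against 0.33 over all probe sets. Among the untreated arrays the lowest value of a member fell on Atf4-/- array 2 for 48 of the 100, on Atf4-/- array 1 for 15, on Atf4+/+ array 1 for 15 and on Atf4+/+ array 2 for 22. Among the treated arrays the lowest value fell on Atf4-/- array 1 for 42, on Atf4-/- array 2 for 36, on Atf4+/+ array 1 for 17 and on Atf4+/+ array 2 for 5.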
